A study of Mus musculus with 8 samples.

Results

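The binding of CTCF was described in immortalised mouse embryo fibroblasts that had received vehicle only (-HOT), with no comparison to treated cells. Of the 8 samples of the study, 2 are CTCF immunoprecipitations of -HOT cells. The others are 2 CTCF immunoprecipitations of cells treated with 4-hydroxytamoxifen (+HOT, 5 nM) and 4 inputs, which were not analysed here. The members are the sites themselves. All 104008 sites of the deposited table were kept, and 103822 of them held at least 1 read in both -HOT libraries. The text of the study gives a slightly lower total of CTCF binding sites, and the difference was not looked into.

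The cells are 1 line, named KO2 in the study, in which exon 4 of both Ash2l alleles is floxed and a Cre-ER transgene is expressed. The line was immortalised with shArf, which lowers the tumour suppressor Arf. Its -HOT cultures received the vehicle, 100% ethanol, for 7 days, so Cre-ER was present without its ligand. Both libraries come from this line, and the study calls them technical replicates. The spread between them, given as SD with n = 2, therefore covers library preparation and counting and no biological variation. The deposited table numbers them R1 and R3, and these names are used. Library R1 holds 4221752 reads in sites and R3 holds 3126722. A value in CPM is the reads at a site per 1000000 reads in all sites of its library, so 1 read is worth 0.237 CPM in R1 and 0.320 CPM in R3. No test between groups exists with a single group, so classes of sites were compared through their values in each library.

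CTCF is a zinc finger protein that binds a long, oriented DNA motif. It blocks contacts between enhancers and promoters at insulators, and it halts the ring-shaped cohesin complex, so that loops of chromatin often end at pairs of CTCF sites whose motifs point at each other. In mice many CTCF motifs lie within B2 elements, short interspersed repeats that spread by retrotransposition. A ChIP signal averages over many cells, so binding in fewer cells and weaker binding in every cell cannot be told apart.

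The motif is shown first as it occurs at the strongest sites. The core was searched as CCNNNAGGNGGC on both strands, where N is any base. The following stretches belong to 5 of the strongest sites with an exact core, chosen so that no base shown lies in an untranslated region or a noncoding exon. They run 5′ to 3′ on the motif strand, with the core in capitals. Each name gives the nearest transcription start site (TSS), the position on NCBIM37 (the assembly of mm9) and the strand.
Uvrag, chr7:106300100-106300160, minus: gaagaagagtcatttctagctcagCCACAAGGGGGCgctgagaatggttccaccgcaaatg
Gdf15, chr8:73154307-73154367, minus: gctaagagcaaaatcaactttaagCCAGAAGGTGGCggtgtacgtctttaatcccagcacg
Clcn4-2, chr7:7231192-7231252, minus: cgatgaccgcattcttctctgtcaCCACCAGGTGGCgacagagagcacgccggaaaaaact
Gbas, chr5:130230813-130230873, minus: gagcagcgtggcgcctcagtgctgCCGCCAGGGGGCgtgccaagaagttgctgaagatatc
Ankrd9, chr12:112230674-112230734, minus: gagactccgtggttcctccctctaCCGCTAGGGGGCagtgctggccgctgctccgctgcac
The site near Uvrag averaged 124 ± 11 CPM and that at Gdf15, a stress-induced cytokine gene, 115 ± 6.9 CPM (SD, n = 2). Both sites hold 2 core motifs.

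Weak sites carried another kind of sequence. A set of 3 versions of the motif, each 13 letters long and termed recurrent words, was found in over 1000 sites each together with much of the DNA around it. The consensus is shown for each, with the word in capitals and n where no base was in most copies.
Word CCAGAAGAGGGCA, 22710 copies: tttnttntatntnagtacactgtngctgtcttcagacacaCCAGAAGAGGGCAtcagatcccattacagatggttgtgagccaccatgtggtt
Word CCACATGGTGGCT, 5595 copies: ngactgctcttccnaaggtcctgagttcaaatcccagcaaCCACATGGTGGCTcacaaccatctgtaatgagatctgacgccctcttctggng
Word CCAGAAGAGGGCG, 5620 copies: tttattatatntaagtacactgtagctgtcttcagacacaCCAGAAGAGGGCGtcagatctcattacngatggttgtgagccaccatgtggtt
The first and the third consensus have nearly the same flanks. Near their ends both hold the second word on the opposite strand, and the second consensus holds the third word in the same way. An example at the median strength of the first word lies in Ncoa2, a gene of a nuclear receptor coactivator.
Ncoa2, chr1:13135011-13135071, minus: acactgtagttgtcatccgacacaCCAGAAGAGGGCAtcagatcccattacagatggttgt
This site had 13 reads in R1 and 13 reads in R3, or 3.62 ± 0.76 CPM (SD, n = 2).

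The listed CTCF sites fell into a large weak group and a smaller strong group. The list is shared by libraries of both treatments, and inputs were not analysed. Weak binding in -HOT cells therefore cannot be told from background reads at weak sites. The median site held 4.73 CPM, with 1.78 CPM at the 10th percentile, 26.5 CPM at the 90th and 48.2 CPM at the 99th. On the log2 scale the most sites, 16206, lay between 2.83 and 4 CPM. A second peak of 7976 sites lay between 22.6 and 32 CPM, and in the trough between both peaks the bin from 11.3 to 16 CPM held 6389 sites. The second peak was present in each library, with 8077 sites in R1 and 7855 in R3, above 6525 in R1 and 6367 in R3 in the bin just below it. Above this peak the counts dropped to 4650 sites between 32 and 45.3 CPM and 921 between 45.3 and 64 CPM.

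**Figure D1:**
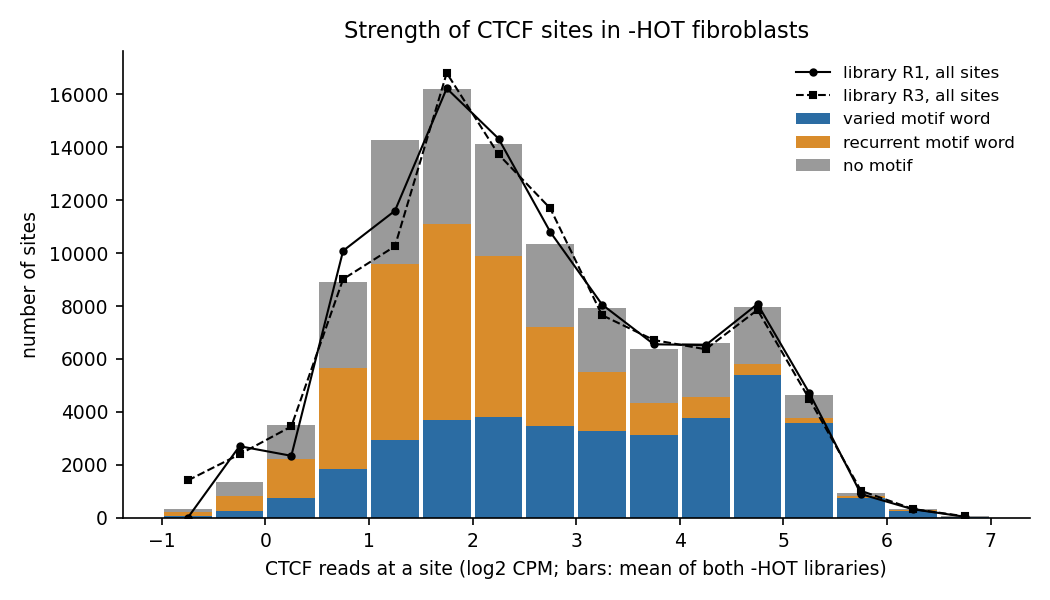
Number of CTCF sites (y axis) by strength in log2 CPM (x axis, bins of 0.5). Bars give the mean of both -HOT libraries and are divided by motif class, and the lines give each library for all sites; the second peak, with 7976 sites between 22.6 and 32 CPM, is mostly made of varied motif words (5408 sites).

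The strong sites took most of the reads. The strongest 10%, sites of at least 26.5 CPM, held 37.7% of site reads in R1 and 38.1% in R3. The strongest 20% held 59.7 ± 0.0036% (SD, n = 2) and the weakest 10% 1.38 ± 0.070%. The Gini coefficient, which is 0 when all sites are equal, was 0.543 in R1 and 0.544 in R3. In all, the sites covered 1.66% of the assembled bases of chromosomes 1 to 19 and X.

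The libraries ranked sites alike where sites were strong. Across 104007 sites with a read, log2(CPM + 0.5) correlated with r = 0.933 (Spearman's rho 0.910), as a description over sites of 2 libraries. Chi-square per degree of freedom, about 1 where counting noise alone acts, was 1.02 in the strongest 10% and between 1.02 and 1.13 in the other strength classes. Between the 2 libraries the median coefficient of variation was 5.98% in the strongest 10%, at medians of 141 and 104 reads, and 33.5% in the weakest, at 6 and 4 reads. Of the strongest 10%, 86.7% of sites were among the strongest 10% of each library.

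The motif followed site strength. The exact core was present in 13714 sites, or 13.2%, and in 0.998% of 194045 windows of the same width that lay 5000 bp to either side and overlapped no site. Its share was 33.7% in the strongest 10% of sites and 6.05% in the weakest 10%, against 2.26% and 0.477% in their flanking windows. Stronger sites are wider, and the flanking windows share that width. Within 100 bp of the centre, where width plays a smaller part, the core was present in 25.6% of the strongest and 5.96% of the weakest 10%. The lower quartile of width in the weakest 10% was 199 bp. Some of these sites thus do not span 100 bp to each side, and only bases inside a site were searched. Among sites with the core, the median distance of the motif from the site centre was 27 bp.

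Sites with more than 1 core held more reads. The 471 sites with 2 or more cores had a median of 25.3 CPM in both libraries. The 13243 sites with a single core had 11.4 CPM in R1 and 11.5 CPM in R3, and the sites without a core had 4.26 CPM in R1 and 4.48 CPM in R3. Sites with several cores were also wider, with a median of 648 bp against 493 bp for 1 core. The share of cores in the genome that lie in a site was 22.8%, or 14236 of 62532.

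A looser definition divided all sites into 3 classes. A matrix of 20 positions was built from the 748 core matches of chromosome 1, and a site was given a motif when its best score passed that of all but 5% of flanking windows. By this rule 71903 sites (69.1%) had a motif. The share depends on the threshold: it was 30.4% (31575 sites) when 1% of flanking windows passed and 74.5% when 10% passed. The 13 letters of the best match that begin with the first letter of the core were then read as a word. Words found in 1000 or more sites are termed recurrent and all others varied. The classes held 37131 sites with a varied word, 34772 sites with 1 of the 3 recurrent words and 32105 sites with no motif.

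Varied words marked the strong sites and recurrent words the weak ones. Sites with a varied word had a median of 9.47 CPM in R1 and 9.59 CPM in R3. The medians of the recurrent class were 3.55 CPM in R1 and 3.52 CPM in R3, a difference many times the spread between the libraries. Sites with no motif lay between, at 4.26 CPM in R1 and 4.48 CPM in R3. In the strongest 10% 74.9% of sites had a varied word, 4.41% a recurrent word and 20.7% no motif. In the weakest 10% the shares were 20.8%, 41.8% and 37.4%, and the recurrent share was highest in the eighth of the 10 strength classes (46.4%). The best match was sought over the whole site against a single threshold, so the wider, stronger sites had more chances to pass it. Varied-word sites made up 35.7% of sites and 55.5 ± 0.12% of reads, and recurrent-word sites 33.4% of sites and 17.7 ± 0.082% of reads (SD, n = 2). At the threshold passed by 1% of flanking windows, the share of sites with a recurrent word was 8.22%, and the median of varied-word over that of recurrent-word sites was 2.29, against 2.71 at the threshold used. The sources used here do not say how reads with several matches in the genome were placed. Recurrent words lie in many copies of similar sequence, and the part of read placement in their low CPM was not tested.

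**Figure D2:**
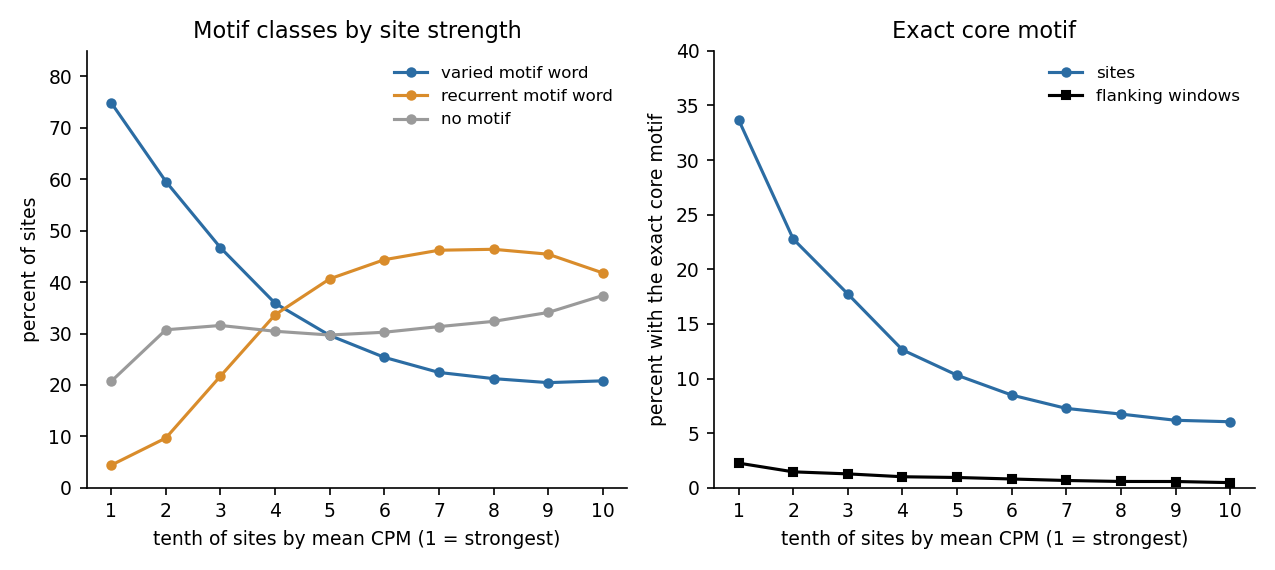
Left, percent of sites (y axis) in each motif class for 10 classes of equal size ranked by mean CPM (x axis, 1 is the strongest). Right, percent with the exact core motif in sites and in flanking windows of the same width; the core was in 33.7% of the strongest and 6.05% of the weakest 10%.

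The recurrent words shared their flanks. The word CCAGAAGAGGGCA occurred as best match in 23143 sites, which is 22.3% of all sites, with a median of 3.62 CPM. CCAGAAGAGGGCG was the best match in 5713 sites (4.05 CPM) and CCACATGGTGGCT in 5916 sites (2.78 CPM). Of the 80 bases around each word, 75, 78 and 77 were the same base in most copies. Around varied words of the strongest 10% this held for 1 position. Both CCAGAAGAGGGCA and CCACATGGTGGCT were present in 11311 sites.

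The deposited lists of differential sites carry HOMER annotation, which names the repeat at a site, and these labels were read for 2401 sites. A B2 label was given to 328 of 384 listed sites with a recurrent word (85.4%). The same label was given to 106 of 1035 with a varied word (10.2%) and 74 of 982 with no motif (7.54%). The lists were selected by the authors for their treatment response, so these shares describe the listed sites and not all sites.

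Copies of the words in the genome differed in how often they lay in a site. In the genome CCAGAAGAGGGCA occurred 38522 times on chromosomes 1 to 19 and X, and 66.3% of the copies lay in a site. CCAGAAGAGGGCG occurred 10018 times with 77.6% in sites, and CCACATGGTGGCT 61417 times with 33.8% in sites. The part of read placement among similar copies in these shares was not tested. Only words with at least 100 sites were counted, so rarer words did not enter. Over the 60 other such words the share in sites had a median of 84.2% and a range of 22.1% to 100%. The word CCACTAGGTGGCG occurred 162 times, each time in a site. CCACCAGGTGGCG had the highest median strength, 30.8 CPM in R1 and 30.7 CPM in R3, and 169 of its 170 copies lay in a site. The stronger the sites of a word, the larger was the share of its copies in sites (Spearman's rho 0.817 over 60 words, which share libraries and overlap in sequence).

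Words that differ by few letters differed in strength. Among varied words, those whose letters 4 and 5 read CT had a median of 17.6 CPM (6179 sites) and those reading CC 16.3 CPM (5568 sites). Words reading GC had 11.04 CPM (7488 sites), CA 9.33 CPM (4643 sites), GT 7.57 CPM (3592 sites) and GA 4.89 CPM (4227 sites). The pair GA is that of the most frequent recurrent word. In 22 pairs of words that differ by A13G alone, counted from 1 at the 5′ end, the version ending in G was stronger in 20, by a median of 2.72 CPM. The change creates a CpG, the dinucleotide that can be methylated. For CCAGCAGAGGGC the medians were 19.8 CPM when followed by G and 10.5 CPM when followed by A. The versions of a pair lie at different sites, whose share at promoters was not matched. Methylation was not measured here.

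Site width followed strength closely. The widths ran between 177 and 2258 bp with a median of 372 bp, and the table that gives them is shared by libraries of both treatments, so the -HOT libraries may not have set them alone. Width and mean CPM correlated with Spearman's rho 0.879 over all sites, which share the libraries and the peak set. CPM counts the reads over the whole width of a site, so part of this relation is built in. The median width was 638 bp in the strongest 10% and 225 bp in the weakest. The 4565 sites under 200 bp had a median of 1.66 CPM in R1 and 1.60 CPM in R3. The 1027 sites of 1000 bp or more had 42.2 CPM in R1 and 41.6 CPM in R3, and 7.30% of them held more than 1 core. Reads per kb of width levelled off, at a median of 34.3 CPM per kb between 500 and 700 bp and 35.3 CPM per kb from 1000 bp on.

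The widest sites were not the strongest. The widest of all spanned 2258 bp, lay upstream of Extl1 and ranked 548 with 58.8 ± 3.7 CPM. The site at the start of Gpc6, which encodes a glypican, was 2155 bp wide and held 56.5 ± 4.8 CPM (SD, n = 2 each). The others of the 5 widest lie near Tmem92-ps and Stoml1 and in an intron of Rgnef.

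Promoter sites were fewer than intragenic or intergenic sites but stronger. Promoter sites lie within 3000 bp of a TSS and were 17590, or 16.9% of sites (95% Wilson interval 16.7 to 17.1%). Intragenic sites made up 39.7% and intergenic sites 43.4%. The classes cover unequal lengths of the genome, so these shares are not densities. Per kb of distance to the nearest TSS, 10380 sites lay 0 to 200 bp upstream. From 1000 to 3000 bp upstream there were 2291 per kb, and from 3000 to 10000 bp upstream 1488. In reads the promoter share was 22.1% in R1 and 22.4% in R3. The median promoter site had 6.63 CPM in R1 and 6.72 CPM in R3. For intragenic sites the medians were 4.50 CPM in R1 and 4.48 CPM in R3, and for intergenic sites 4.26 CPM in R1 and 4.48 CPM in R3. Intragenic and intergenic medians were the same in R3. The interval covers counting error only, as do all intervals here.

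The strength of promoter sites peaked just upstream of the TSS. Between 0 and 200 bp upstream 2076 sites were found, with a median of 11.6 CPM in R1 and 11.8 CPM in R3. Over the first 200 bp downstream there were 1560 sites with 7.34 CPM in R1 and 7.20 CPM in R3. Of the upstream sites only 2.31% had a recurrent word, whereas 43.2% did between 3000 and 10000 bp upstream. Over 100000 bp upstream of the next TSS the median was 3.32 CPM in R1 and 3.52 CPM in R3. Counting each promoter site for its nearest TSS only, the sites belonged to 11149 genes, and 4208 of these genes had more than 1.

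**Figure D3:**
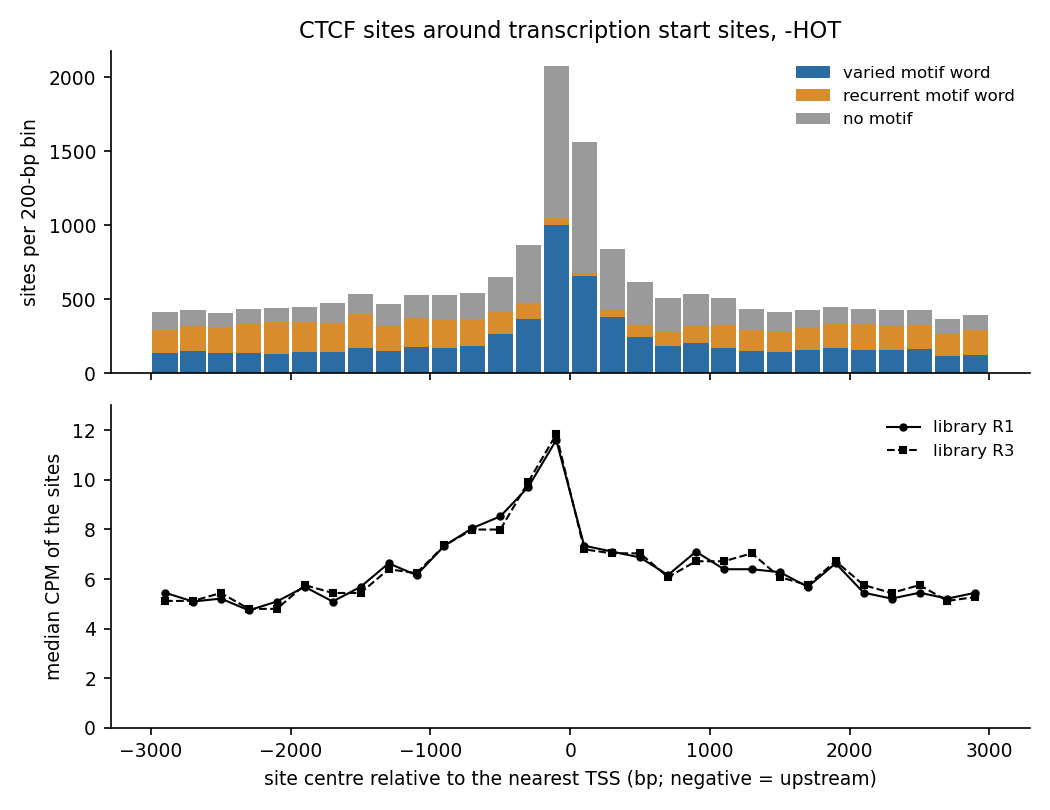
Upper panel, number of sites per 200-bp bin (y axis) by the position of the site centre relative to the nearest TSS (x axis, negative is upstream), divided by motif class. Lower panel, median CPM of the sites in each bin and library; sites peak in number (2076) and strength (11.6 CPM in R1, 11.8 CPM in R3) in the bin just upstream of the TSS.

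CpG islands, stretches rich in unmethylated CpG that overlap many promoters, held few recurrent words. A site was taken as CpG-island-like when GC content exceeded 50% and CpG occurred at more than 0.6 times its expected rate in the 500 bp about its centre. Of promoter sites 25.5% were CpG-island-like, and 0.334% of these had a recurrent word. CpG-island-like promoter sites had a median of 9.001 CPM in R1 and 8.96 CPM in R3. Other promoter sites had 6.16 CPM in R1 and 6.08 CPM in R3. The 703 CpG-island-like sites away from promoters were stronger still, with 15.4 CPM in R1 and 15.0 CPM in R3, and 36.3% of them belonged to the strongest 10%. Of the CpG-island-like promoter sites 54.6% had no motif, and their median was 5.82 CPM, beside 17.6 CPM for those with a varied word.

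By gene structure 45.7% of sites were centred in introns, 49.1% between genes, 2.11% in coding exons and 2.56% in untranslated regions. Recurrent words were present in 1.00% of 2197 coding exon sites, beside 38.5% of 47524 intron sites. Varied words were present in 54.7% of coding exon sites. The median coding exon site had 6.87 CPM in R1 and 7.04 CPM in R3.

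Sites lay close together. The median distance between the centres of neighbouring sites was 9946 bp on chromosomes 1 to 19 and X, and 70.9% of sites had a neighbour within 10000 bp. The strongest 10% alone was spaced by a median of 76694 bp, whereas the weakest 10%, of nearly the same number, was spaced by 138240 bp. Within 10000 bp of another member of the same class lay 24.6% of the strongest and 11.5% of the weakest. The mean CPM of neighbours was only weakly related, with Spearman's rho 0.0987 for 32661 pairs within 5000 bp.

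Site density followed genes. A window of 1 Mb held a median of 33 sites, and 81 of 2649 windows held none. The number of sites and the number of protein-coding genes correlated with Spearman's rho 0.740 over the 2568 windows with a site. The densest window, chr17:35000001-36000000 with 68 protein-coding genes, lies in the major histocompatibility complex and includes Hspa1b, a heat shock gene. It held 167 sites, 28 of them in the strongest 10%, and its summed signal was 1986 CPM in R1 and 1987 CPM in R3. The window chr10:80000001-81000000 around Nfic and Gng7 held 149 sites with a summed 2560 CPM in R1 and 2741 CPM in R3, and 43 of its sites were in the strongest 10%. The other 3 of the 5 densest windows lie on chromosomes 11, 4 and 17, around Arhgap23, Wasf2 and Fgd2.

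Neighbouring motifs were read for direction, since CTCF motifs that point at each other often bound loops. Among 13481 sites with cores on 1 strand, 24.98% of 13461 neighbouring pairs converged, 24.98% diverged and 50.0% pointed the same way. Within 10000 bp 317 of 1504 pairs converged (21.1%) and 395 diverged (26.3%). In the strongest 10%, 25 of 192 pairs within this distance converged (13.02%) and 60 diverged (31.3%). Converging pairs of this class were spaced by a median of 263000 bp, diverging pairs by 176670 bp. Over all core sites the medians were 90464 bp for converging and 74917 bp for diverging pairs. Both kinds must alternate along a chromosome, so their totals are bound to be nearly equal and only their spacing can differ. No contact map was part of these data.

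Among the 453 single-strand core sites of the strongest 1%, 108 neighbouring pairs over 10000 bp apart converged, and the 3 closest spanned 10786, 23993 and 36305 bp. The closest lies on chromosome 15 near 5330439K02Rik, with 59.7 ± 5.3 CPM on its left and 50.5 ± 2.6 CPM on its right. The second joins an intergenic site next to Ptma, the prothymosin alpha gene, at 53.1 ± 0.42 CPM with a site at its promoter at 59.4 ± 3.1 CPM. The third joins the promoter of Nae1, a subunit of the NEDD8-activating enzyme, at 48.4 ± 2.5 CPM with a site near Pdp2 at 59.7 ± 2.0 CPM (SD, n = 2 each). Other sites lie within all 3 intervals, 2, 3 and 6 of them.

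The X chromosome stood apart from all autosomes. It held 20.05 sites per Mb of assembled sequence, against 33.6 to 61.8 sites per Mb on the 19 autosomes. Only 1.91% of its sites belonged to the strongest 10%, against 8.41% or more on each autosome. Chromosome 18, which has about as few genes per Mb (5.90) as X (5.75), held 36.5 sites per Mb. Over the 20 chromosomes sites per Mb and protein-coding genes per Mb correlated with Pearson's r = 0.778 and Spearman's rho 0.871, as a description. Chromosome 11 was the densest, with 61.8 sites and 13.9 genes per Mb.

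The strong sites on X were weaker than those on autosomes. The 90th percentile of varied-word sites was 22.2 CPM in R1 and 21.7 CPM in R3 on X, against 34.1 CPM in R1 and 34.5 CPM in R3 on autosomes. Between 22.6 and 32 CPM lay 7.33% of varied-word sites on X in R1 and 6.97% in R3, against 15.0% in R1 and 14.5% in R3 on autosomes, whose peak this is. On X the fullest bin was that between 16 and 22.6 CPM, with 13.8% in R1 and 13.7% in R3, although in R1 the bin below it held nearly as many (13.7%). Above 32 CPM lay 16 of 1105 varied-word sites on X (1.45%), against 12.8% of 35990 on autosomes. The median of varied-word sites was 7.34 CPM in R1 and 7.36 CPM in R3 on X, and between 6.71 and 11.9 CPM as mean of both libraries on single autosomes, so chromosome 12 lay below X by this measure. The number of X chromosomes and of other chromosomes in this line was not measured here, and the part of copy number in the result was not tested. No site was listed on the Y chromosome.

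**Figure D4:**
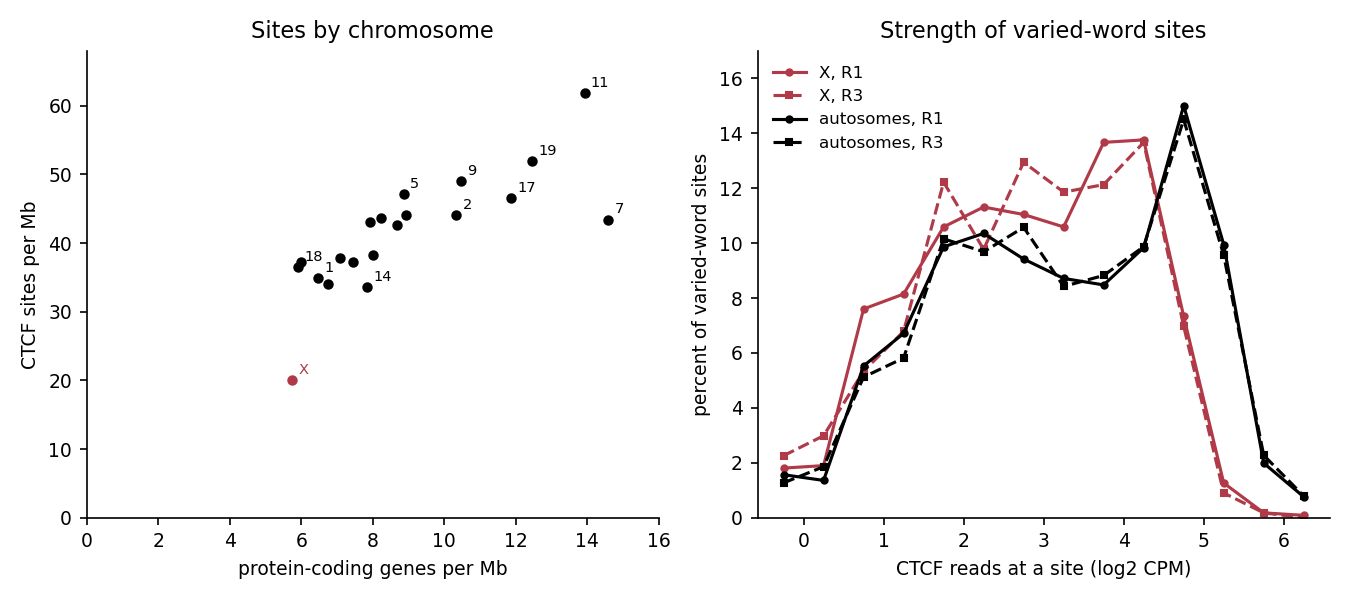
Left, CTCF sites per Mb (y axis) by protein-coding genes per Mb (x axis) for the 19 autosomes and X. Right, percent of varied-word sites (y axis) by strength in log2 CPM (x axis, bins of 0.5) on X and on autosomes in each library; X held 20.05 sites per Mb, and its fullest bin lay between 16 and 22.6 CPM, below the peak of the autosomes between 22.6 and 32 CPM.

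The strongest site, chr17:39981799-39982998, had 1696 reads in R1 and 1451 reads in R3, or 402 and 464 CPM. The second, chr17:39979942-39980767, had 290 CPM in R1 and 343 CPM in R3. Neither holds a motif, and both lie far from the start of Pgk2. They are intergenic only with respect to protein-coding, lincRNA and processed transcripts. Genes of other types and repeats were not looked up there. The third and the fourth lie at the distal end of the X chromosome in Mid1, a ubiquitin ligase gene that spans the pseudoautosomal boundary of laboratory mice. The third had 190 CPM in R1 and 224 CPM in R3, and the fourth 161 CPM in R1 and 211 CPM in R3. Both have a varied word. Another Mid1 site ranked 16, with 116 ± 5.9 CPM.

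The fifth site overlaps an exon of the noncoding gene Gm16994 on chromosome 8, is 1946 bp wide and had 199 CPM in R1 and 168 CPM in R3. It was the strongest site with a core motif. The sixth (chromosome 15, near Ly6c2) and the seventh (in Gm10801 on chromosome 2) are narrow, 353 and 355 bp, and have no motif. The sixth had 155 CPM in R1 and 204 CPM in R3 and the seventh 117 CPM in R1 and 163 CPM in R3. The promoter of Arid1a, a subunit of the BAF chromatin remodelling complex, ranked eighth with 128 CPM in R1 and 124 CPM in R3. Sites near Uvrag and Cr2 completed the 10.

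At these 10 sites the libraries differed by more than counting noise. R3 was higher in 8 of the 10, and chi-square per degree of freedom, which grows with the number of reads, was 6.77, against 1.17 over the 1000 strongest and 1.09 over all sites with a read. The median coefficient of variation was 12.05%, against 5.11% over the 1000 strongest and 14.8% over all sites. Among the 100 strongest R3 was higher in 75. These 100 sites took 1.01% of reads in R1 and 1.09% in R3. How reads with several matches in the genome were placed is not given in the sources used here, so reads of near-identical copies elsewhere in the genome may be counted at such sites. Of the 1000 strongest sites 821 had a varied word, 118 no motif and 61 a recurrent word.

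**Figure D5:**
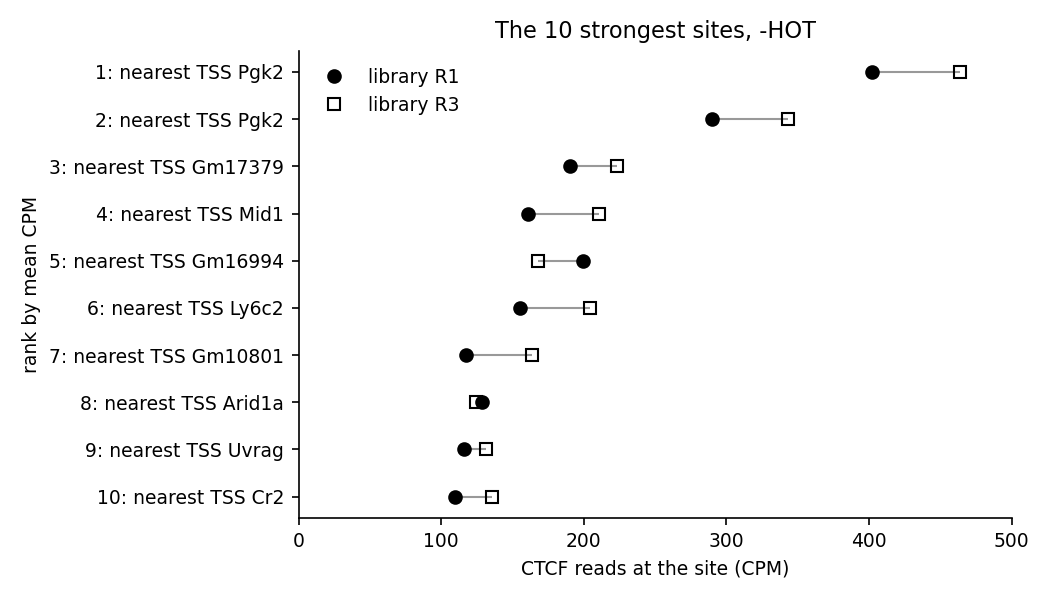
CPM (x axis) of the 10 strongest sites in library R1 (filled circles) and library R3 (open squares), ordered by mean CPM and named by the nearest TSS. R3 was higher in 8 of the 10, and R1 at the sites of Gm16994 and Arid1a.

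Recurrent words were rare among the strongest but not absent. The 2 strongest lie in Sfi1, a centrosomal protein gene, at 116 and 105 CPM. The third lies near Malat1, a long noncoding RNA gene, at 92.0 ± 2.6 CPM (SD, n = 2), and is printed with the word in capitals because its flanks differ from the consensus:
Malat1, chr19:5787213-5787273, plus: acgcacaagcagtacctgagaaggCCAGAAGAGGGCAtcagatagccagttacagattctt

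The strongest site of a chromosome was a promoter site on 12 chromosomes, an intergenic site on 6 and an intragenic site on 2. Besides those among the 10 strongest of all, promoter sites led at Gm962 (chromosome 19, 121 ± 2.4 CPM), Sfi1 (chromosome 11, 116 ± 15 CPM) and Sh3glb1 (chromosome 3, 106 ± 9.0 CPM). So did those of Gbas on chromosome 5, Rimbp3 on 16, Cirbp on 10, Med4 on 14 and Tex261 on 6, at 103, 99.6, 99.4, 89.7 and 84.5 CPM. Cirbp encodes a cold-inducible RNA-binding protein and Med4 a subunit of Mediator. Intragenic sites led on chromosome 18 (in Ctif, 120 ± 9.4 CPM) and chromosome 13 (in Rgnef, 75.9 ± 4.8 CPM). Besides chromosomes 17, 15, 7 and 1, whose leading sites are among the 10 strongest, intergenic sites led on chromosome 12 near Ankrd9 (102 ± 6.0 CPM) and on chromosome 9 near Epm2aip1 (88.4 ± 4.8 CPM; SD, n = 2 each). The 5 strongest intragenic sites included those in Trpm8, a cold-sensing channel gene (121 CPM), Col18a1 (96.7 CPM) and Mcoln2 (96.7 CPM).

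Promoter binding was read for gene lists beside all genes. Of 22230 protein-coding genes, 50.3% had a site within 3000 bp of a TSS, and the strongest such site had a median of 10.7 CPM in R1 and 10.6 CPM in R3. Of 22 genes of CTCF, cohesin and co-factors 17 had a site, with a median of 32.5 CPM in R1 and 30.1 CPM in R3. Stag1, a cohesin subunit, was highest with 77.7 CPM in R1 and 79.3 CPM in R3. Esco1, a cohesin acetyltransferase, averaged 47.4 ± 0.76 CPM, Ctcf itself 46.1 ± 1.8 CPM and Pds5a, a cohesin regulator, 43.8 ± 2.3 CPM (SD, n = 2 each). No promoter site was listed for Rad21, Hdac8, Cdca5, Vezf1 and Chd8.

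Of 18 imprinted genes with an annotated start 14 had a promoter site, with a median of 13.3 CPM in R1 and 14.4 CPM in R3. Grb10, an adaptor of growth factor receptors, was highest at 36.2 ± 1.4 CPM. H19, the noncoding RNA whose upstream control region is a classical CTCF insulator, had 29.6 CPM in R1 and 25.9 CPM in R3, and its neighbour Igf2 had 6.87 CPM in R1 and 8.00 CPM in R3. Trappc9 and Mest followed H19 at 27.4 and 26.5 CPM.

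The 21 genes at loci known for CTCF boundaries had a site in 17 cases, with a median of 15.2 CPM in R1 and 17.6 CPM in R3. App led with 42.2 ± 5.4 CPM, followed by Sox9 (34.6 CPM), Epha4 (34.2 CPM) and Kcnj2 (31.3 CPM). Hoxd13, Pax3, Wnt6 and Hbb-b1 had none. For 20 fibroblast genes 17 had a site (85%), with a median of 9.24 CPM in R1 and 9.59 CPM in R3. Pdgfra, the receptor that marks many fibroblasts, led with 62.0 ± 3.1 CPM, followed by Col1a1 (32.2 CPM), Snai2 (25.4 CPM) and Lox (24.1 CPM). For 20 genes of other cell types 7 had a site (35%), with Gfap, an astrocyte gene, highest at 42.9 ± 0.57 CPM and Myod1, Cdh5 and Pou5f1 next at 15.98, 13.1 and 10.2 CPM. The sites of these 7 genes had a median of 10.2 CPM in both libraries, above that of the fibroblast genes. Of 18 housekeeping genes 11 had a site, with a median of 14.2 CPM in R1 and 12.2 CPM in R3, led by Rplp0 (52.4 ± 2.8 CPM), Rpl13a (37.9 CPM), Actb (27.8 CPM) and Tubb5 (26.0 CPM). CTCF at a promoter is no measure of expression, so these lists do not test the cell type.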

How the data were processed

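The binding sites and gene lists were chosen with earlier results of these data known. According to the methods of the study, chromatin of 1 mouse fibroblast line was precipitated with a CTCF antibody and sequenced. The authors used Trim_Galore before BWA alignment to mm9, removed duplicate, unmapped and blacklisted reads, and found narrow peaks with MACS2. SAMtools, deepTools and DESeq2 are also named in the submitters' processing notes. Tool versions, how reads were counted and whether each library had its own peaks are details not given in the sources used here.

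For each site the deposited table gives raw read counts, which the authors did not normalise, and the 2 columns of -HOT CTCF libraries were used. Of 8 columns of values over the 4 CTCF libraries, 6 were not used here: the counts of +HOT libraries and the signal the authors had normalised with DESeq2. Columns of fold change and p-values hold the authors' comparison and were not used. Other deposited columns hold HOMER annotation by the authors, read only for repeat names in the lists of 2401 sites. Inputs were not analysed. Columns are numbered R1 and R3 whereas titles say R1 and R2, so columns were assigned to the group only. Depth was 4221752 and 3126722 site reads. A count of 0 allows up to 3 reads, which is 0.711 CPM in R1 and 0.959 CPM in R3.

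Starts in the table are 0-based, so 1 was added. Sites were placed by centre on NCBIM37 and GENCODE vM1, with TSS of protein-coding, lincRNA and processed transcripts. Gene bodies were those of the same transcript types, so an intergenic site may lie in a gene of another type. A promoter site lies within 3000 bp of a TSS. Sites were ranked by mean CPM of both libraries and split into 10 equal classes. No test was made, since 1 group of 2 technical libraries allows none. The search for recurrent words and their minimum of 1000 sites were chosen after seeing the data. No repeat annotation covering all sites was used.

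The sites named are the 10 strongest, the strongest on each chromosome, the 5 strongest each of promoter, intragenic, intergenic, core-free and core-holding sites, the 5 widest, the 3 closest converging pairs within the strongest 1%, the 5 densest windows and longest gaps, and 4 genes per list. Recurrent-word sites and genes without a site were named after their values were seen. Python 3.11.15, numpy 2.4.6, pandas 2.3.3, scipy 1.17.1 and edgeR 4.0.16 were used, the last for TMM library sizes only. The functions were tested on simulated data. Alternatives were other scalings, filters, promoter windows, motif thresholds and leaving out each library. The list of genes of the X inactivation centre is not reported here.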

Additional observations from a re-analysis of the deposited data

How the results depend on the processing

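No paired analysis was possible because both libraries belong to 1 group. Of 99 values under alternatives, over 18 results, 46 stayed within the spread or 1.5 times of the reported value and 53 moved. Most results are shares, medians or ratios, which cannot change sign. The promoter minus intergenic difference and the correlation of the libraries can, and both stayed positive. The settings for recurrent words, the values per library and with the exact core for X, and leaving out the 10 strongest sites from the agreement were chosen after seeing the data.

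Leaving out either library gave 4.74 to 4.80 CPM for the median site, 37.9 to 38.3% of reads in the strongest 10% and a median width there of 636 to 636.5 bp. It gave 22.1 to 22.4% of reads at promoter sites, a promoter minus intergenic difference of 2.24 to 2.37 CPM and a core share of 33.3 to 33.6% in the strongest and 6.08 to 6.21% in the weakest 10%. The ratio of X to autosomes was 0.756 to 0.767 and that of varied to recurrent words 2.67 to 2.73, and 9 of the 10 strongest sites were shared in each case.

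With at least 10 reads in each library the median was 8.15 CPM, the strongest 10% held 30.2% of reads at a median width of 661 bp, promoter sites held 23.1% of reads and differed from intergenic ones by 1.82 CPM. The share with a near neighbour was 62.9%, X held 11.9 sites per Mb with a ratio to autosomes of 0.726, the core shares were 36.7% and 7.52%, and 42.8% of genes had a promoter site. Per kb of width the median was 13.4 CPM, the strongest 10% held 35.9% of signal at 573 bp, promoter sites held 21.0% and differed by 5.03 CPM, the X ratio was 0.812, and 5 of the 10 strongest sites were shared.

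Promoter windows of 1000 and 5000 bp gave 12.8 and 29.5% of reads, differences of 3.85 and 1.79 CPM and 32.2 and 60.5% of genes, and protein-coding starts alone gave 19.4% and 2.61 CPM. Within 5000 and 20000 bp 50.6 and 86.1% of sites had a neighbour, and 68.5% within 10000 bp after dropping sites near a stronger one. Within 100 bp of the centre the strongest 10% had the core in 25.6%. Matrix matches passed by 1, 5 and 10% of flanking windows were in 59.7, 79.3 and 84.1% of the strongest and 14.3, 62.6 and 67.7% of the weakest 10%. Converging pairs were 24.1% by best matrix match and 23.1% within 100000 bp. Words recurrent in 500 and 300 sites were in 35.8 and 40.9% of sites, with a ratio of 2.31 for a minimum of 300, and the 1% threshold gave 8.22% and 2.29. With the exact core the X ratio was 0.765. The causes were not tested. At medians of 20 and 15 reads, single weak sites are limited by depth.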

Other observations

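A few genes had listed sites over most of their coding sequence. Of 15423 genes with at least 4 coding exons, 20 had over 50% of coding bases in sites and at least 5 times the share of their introns. Besides Ash2l, the gene that is floxed in this line, these included Hes7, Hes1 and Hey1, short genes of Notch target transcription factors, at 66.5%, 62.6% and 59.1% of coding bases, and Dapk3, a kinase gene, at 63.6%. In Hes7, Hes1 and Hey1 sites overlapped 1 coding exon each. In Ash2l, with 79.6% of coding bases, sites overlapped 12 of 16 coding exons. The gene had 12 sites, 9 of them centred in coding exons, with 1.55 to 7.28 CPM each. No motif was found in 11 of the 12. Sites that follow exon borders cannot be told here from reads of spliced sequence, and this was not tested. Over all these genes the mean share was 3.06% of coding and 3.12% of intron bases.

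Long stretches had no site. The longest gap, 7121657 bp on chromosome 7, consisted to 98.3% of unassembled sequence, as did 91.2% of the 2193892 bp on chromosome 1 and 96.0% of the 2083602 bp on chromosome 8. The other 2 of the 5 longest gaps were mostly assembled. The gap on X (4105954 bp, 6.09% unassembled) contained 12 protein-coding gene starts, and that on chromosome 7 next to the vomeronasal receptor gene Vmn2r44 (2460756 bp, 10.2% unassembled) contained 14. Unplaced contigs held 101 sites and 0.101% of reads in R1 and 0.102% in R3.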
